A study of Mus musculus with 8 samples.

Results

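The genes described here encode the nuclear part of the oxidative phosphorylation machinery of mitochondria. They were taken by symbol as the protein-coding nuclear genes whose names begin with Nduf, Uqcr, Cox followed by a digit, or Atp5, together with Sdha to Sdhd. This gave 105 of the 21887 protein-coding nuclear genes of the mouse RefSeq annotation (GRCm38.p6, the assembly of mm10). They fall into 39 genes of complex I, 4 of complex II, 8 of complex III, 19 of complex IV, 17 of complex V, and 18 assembly or supercomplex factors. The rule uses symbols only and no measured value.

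Mouse embryonic stem cells were profiled for N6-methyladenosine (m6A), the most common internal methylation of mRNA, by immunoprecipitation (IP) of fragmented mRNA with an m6A antibody, beside input RNA. All cells, controls included, carried a construct for knockdown of Setd2, the methyltransferase that places H3K36me3 on transcribed chromatin, and the construct responds to doxycycline (Dox). Control cells received no Dox, and the other cells received 1 µg/ml for 4 days. Both grew feeder-free as spheres in serum-free N2B27 medium with the MEK inhibitor PD0325901 (1 µM), the GSK3 inhibitor CHIR99021 (3 µM) and LIF (1000 U/ml). Each condition had 2 IP and 2 input libraries, and the authors called 1 list of peaks on the replicates together. Knockdown and Dox cannot be told apart, because no cells with Dox and without the construct were among the samples. The labels do not say whether the replicates were separate cultures, and read depth is unknown. With 1 list per condition there is no replicate spread and no test between the conditions, so all differences below describe the lists. All 7 embryonic stem cell markers looked up (Pou5f1, Sox2, Nanog, Zfp42, Esrrb, Klf4, Tfcp2l1) had peaks in both lists. Of 5 fibroblast or feeder markers, Thy1, Col1a2 and Col3a1 had none and Col1a1 and Vim had peaks in both. Setd2 itself had 10 control and 6 Dox peaks, which do not measure its level.

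Oxidative phosphorylation passes electrons from NADH (through complex I) and from succinate (through complex II) to ubiquinone, then through complex III and cytochrome c to complex IV, which reduces oxygen. Complexes I, III and IV pump protons across the inner mitochondrial membrane, and complex V, the ATP synthase, uses the gradient to make ATP. Most subunits are encoded in the nucleus, translated in the cytosol and imported, and assembly factors help them join the subunits made inside the mitochondrion. In adenosine methylation of mRNA the usual sites contain the letters GGAC or close variants and are enriched near stop codons and in long exons.

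Oxidative phosphorylation genes carried m6A peaks more often than protein-coding genes at large. In complex IV the share was lower, with an interval that holds the share of all genes. A peak in at least 1 list was found for 78 of the 105 genes (74.3%, exact Clopper-Pearson 95% interval 64.8% to 82.3%), against 48.8% of all protein-coding nuclear genes. Intervals here cover counting error only. Peaks in both lists were present for 58 of the 78 (74.4%, against 83.6% of all genes with a peak). Another 6 had peaks in the control list only (7.69%, against 6.4%), and 14 in the Dox list only (17.9%, against 9.98%). This order was not stable: the authors' shorter lists gave 11 and 12 genes, and a fold of at least 4 gave 18 and 4. Over the whole lists 57.8% of control peaks but only 41.3% of Dox peaks reached that fold. Counts over all genes were not made at these limits, so the turn may not be particular to these genes. Mitochondrial ribosomal protein genes, which serve the same organelle, had a peak in 67 of 78 cases (85.9%), and cytoplasmic ribosomal protein genes in 64 of 84 (76.2%). Transcript level bears on whether a peak can be called, and the peak lists do not measure it.

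The complexes differed in this respect. Complex I had peaks in 30 of its 39 genes, of which 23 had them in both lists, 1 in control only and 6 in Dox only. All 7 nuclear core subunits of complex I, which carry electrons from NADH toward ubiquinone, had peaks. All 4 complex II genes and all 8 complex III genes had peaks, with 2 of each in the Dox list only. Of all genes with a peak, 6.4% had it in control only and 9.98% in Dox only. Complex V had peaks in 14 of 17 genes and the assembly factors in 14 of 18, with 12 in both lists in each case. Complex IV had peaks in 8 of 19 genes (42.1%, 20.3% to 66.5%), 3 of them in both lists, 3 in control only and 2 in Dox only. That interval holds the 48.8% of all protein-coding nuclear genes, and the 19 genes include forms restricted to certain tissues.

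**Figure D1:**
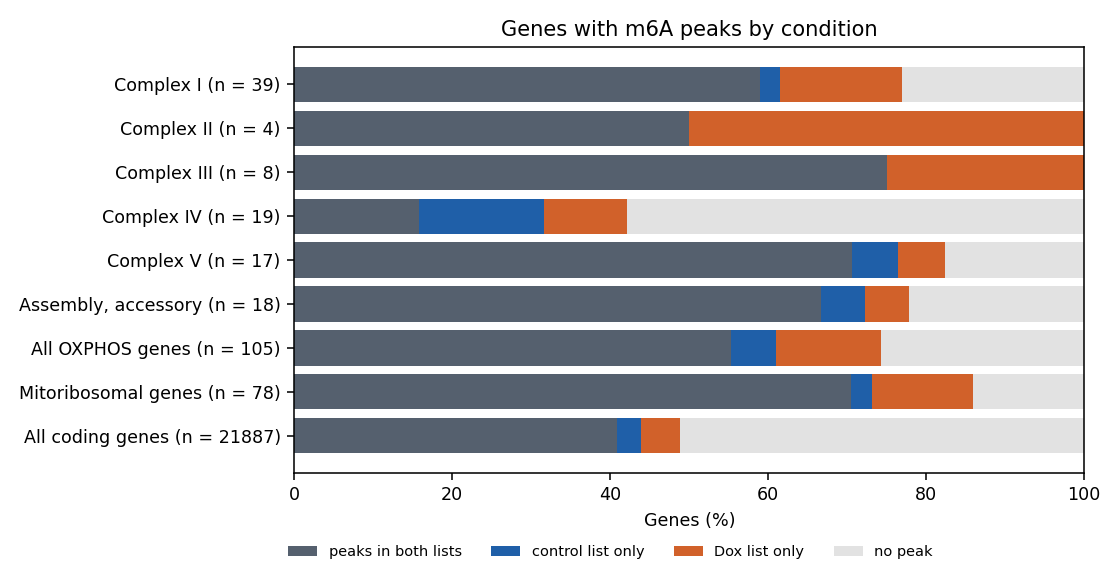
Percentage of genes in each group (horizontal axis) with m6A peaks in both lists, in the control list only, in the Dox list only or in neither, with the number of genes of each group after its name. Complex IV stands lowest, with peaks in 8 of 19 genes, while complexes II and III have a peak in every gene.

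The 27 genes without a peak included the most widely expressed complex IV subunits as well as forms restricted to certain tissues. In complex IV these were Cox4i1, Cox6b1, Cox6c, Cox7a2, Cox7c and Ndufa4, which are found in most tissues, and Cox4i2, Cox6a2, Cox7b2, Cox8b and Cox8c, which are known from lung, muscle or testis. In complex I they were Ndufa1, Ndufa3, Ndufa5, Ndufa9, Ndufa11, Ndufab1 and Ndufb1, all accessory subunits around the core, and the gene copies Ndufb4b and Ndufb4c. Complex V lacked peaks in Atp5g2, one of the genes for the rotating c ring, and in the small membrane subunits Atp5md and Atp5mpl. Among assembly factors Cox16, Cox20, Ndufaf3 and Ndufaf6 had none. Absence from these lists means that no peak was called for an identifier placed in the gene, not that the mRNA lacks m6A. Some of these genes, Cox4i1 and Cox6c among them, had no strand in the reference, and identifiers tied between genes were not placed.

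Peaks on these mRNAs lay at the start of the gene far more often than peaks elsewhere. Peaks were placed by the midpoint of their exonic length along genes of at least 3000 nt. In the control list 28 of 80 placed peaks (35%, 24.7% to 46.5%) lay within 500 nt of the 5′ end, against 13.1% of placed peaks of all protein-coding genes. In the Dox list the numbers were 31 of 96 (32.3%, 23.1% to 42.6%) and 7.74%. Mitochondrial ribosomal protein genes had 21.3% of placed control peaks and 12.5% of placed Dox peaks there. Cytoplasmic ribosomal protein genes had 22.2% and 11.3%, so both groups also stood above all genes. Over all gene lengths, the first 10% of the gene held 46.3% of the control peaks of oxidative phosphorylation genes and 34.2% of their Dox peaks, against 18.4% and 11.9% for other genes. The last 10% held 11.6% and 18.0%, against 28.5% and 31.4% for other genes. These genes are short, with a median length of 7345 nt against 17169 nt for all, and in a short gene any midpoint is nearer to an end. Among genes of 3912 to 12994 nt only, a span that holds the middle 53 members by length, the 5′ end still held 33.3% of members' control peaks against 17.8% for all genes of that length, and 31.7% of their Dox peaks against 12.3%. At that length, the last 1000 nt held 13% of members' control peaks against 23.1%. For Dox peaks the shares were 26.7% and 25.7%, so the lower share at the 3′ end was not seen there in the Dox list.

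**Figure D2:**
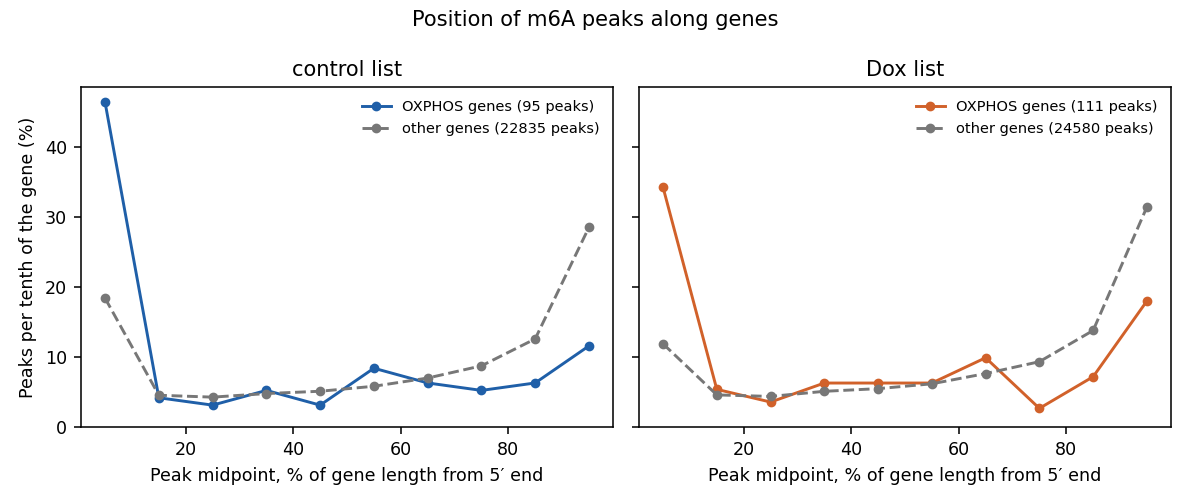
Share of peaks (vertical axis, percent) in each 10% of the gene from the 5′ end (horizontal axis) for oxidative phosphorylation genes (solid) and other protein-coding genes (dashed), control list on the left and Dox list on the right. In both lists the solid line is highest in the first 10%, at 46.3% and 34.2%, and the dashed line is highest in the last 10%.

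Whether the 5′ end peaks of these genes had a counterpart more often than such peaks at large depended on how the 5′ end was drawn. Of their 28 control peaks at the 5′ end, 5 had no overlapping Dox peak (17.9%, 6.06% to 36.9%), against 38.6% of all control peaks at 5′ ends. Of their 31 Dox peaks there, 8 had no overlapping control peak (25.8%, 11.9% to 44.6%), against 14.5%. The first interval lies below its background, and the second holds its own. The backgrounds in this paragraph are not matched for support. A log10 false discovery rate of -5 or less was reached by 82.3% of members' control peaks, against 64.3% of all control peaks. Over all control peaks, 40.4% of those above -5 and 0.534% of those at -50 or less had no Dox counterpart. Among control peaks that reach the first 50 nt from a start listed by RefSeq, 4 of 31 had no Dox counterpart (12.9%, 3.63% to 29.8%), against 25.2%, and this interval holds its background. Among such Dox peaks 5 of 22 had no control counterpart (22.7%, 7.82% to 45.4%), against 8.84%, and this interval also holds its background.

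In RefSeq's table of promoters, 85 of the 105 genes have at least 1 listed start. A control peak covered part of the first 50 nt from a listed start in 30 of them (35.3%, against 13.7% of all genes with a listed start) and a Dox peak in 22 (25.9%, against 9.02%). Mitochondrial ribosomal protein genes had such peaks in 27.5% and 26.1% of cases. Antibodies against m6A also bind m6Am, a mark of an adenosine next to the cap, and the peak lists do not tell the marks apart. The base at the first listed start was an A in 11 of the 35 oxidative phosphorylation genes with a peak at the start (31.4%, 16.9% to 49.3%) and in 30.6% of all genes with one. It was an A in 9 of the 50 oxidative phosphorylation genes without such a peak (18%, 8.58% to 31.4%). Over all genes with a listed start the share was 38.5%, and these differences were not tested.

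Sequences before the start are shown for 4 genes whose peaks reach the start and whose promoters hold the letters described below. The 4 stretches below are the 250 bases before the listed start of Ndufa8, Ndufs6, Ndufb7 and Cox6a1 (RefSeq, GRCm38.p6), written 5′ to 3′ on the gene's strand. The control peak of each gene extends past its listed start into the end of the printed stretch, and so do the Dox peaks of Ndufa8, Ndufs6 and Ndufb7. Capitals mark matches to GCGCA and GCGC separated by 1 base, the letters bound by the respiratory gene regulator NRF1, and to CCGGAAG, the core of ETS family sites, on either strand.
Ndufa8, chr2:36049339-36049588 (minus strand): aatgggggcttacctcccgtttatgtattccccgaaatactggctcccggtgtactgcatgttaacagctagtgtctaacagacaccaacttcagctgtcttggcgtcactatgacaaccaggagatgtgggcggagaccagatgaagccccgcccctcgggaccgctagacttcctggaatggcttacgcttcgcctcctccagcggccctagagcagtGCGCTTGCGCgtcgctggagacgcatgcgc
Ndufs6, chr13:73328483-73328732 (minus strand): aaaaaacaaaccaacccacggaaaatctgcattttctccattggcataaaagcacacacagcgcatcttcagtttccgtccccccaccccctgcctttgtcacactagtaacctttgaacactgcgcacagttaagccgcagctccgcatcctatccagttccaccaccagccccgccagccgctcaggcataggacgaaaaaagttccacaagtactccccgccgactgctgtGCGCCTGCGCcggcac
Ndufb7, chr8:83566508-83566757 (plus strand): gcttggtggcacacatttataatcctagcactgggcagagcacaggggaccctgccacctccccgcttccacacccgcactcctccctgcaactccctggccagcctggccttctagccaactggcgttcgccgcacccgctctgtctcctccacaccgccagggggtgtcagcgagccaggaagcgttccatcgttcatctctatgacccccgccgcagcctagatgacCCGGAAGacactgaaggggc
Cox6a1, chr5:115348959-115349208 (minus strand): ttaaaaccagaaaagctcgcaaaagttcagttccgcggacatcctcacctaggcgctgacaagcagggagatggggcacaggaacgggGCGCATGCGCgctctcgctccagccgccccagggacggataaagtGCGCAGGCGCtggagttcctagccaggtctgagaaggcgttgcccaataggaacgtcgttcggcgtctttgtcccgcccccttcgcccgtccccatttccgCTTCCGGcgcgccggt
Ndufa8 and Ndufs6 hold 1 match to the NRF1 letters, Cox6a1 holds 2 and 1 to the ETS letters, and Ndufb7 holds 1 to the ETS letters only. The 4 are examples and do not stand for all genes with a peak at the start. Ndufb10, whose control peak also extends past its listed start, holds neither set of letters there.

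These letters were more common at the starts of oxidative phosphorylation genes than over all genes, at shares near those of mitochondrial ribosomal protein genes or below them. Over the 300 bases from 250 before to 50 after the first listed start, on both strands, the NRF1 letters were found in 18 of 85 genes (21.2%, 13.1% to 31.4%) against 6.6% of all 17492 listed starts. CCGGAAG was found in 23 (27.1%) against 11.9%, and AAGATGG, the core of YY1 sites, in 13 (15.3%) against 6.37%. Mitochondrial ribosomal protein genes held the 3 sets of letters in 18.8%, 36.2% and 18.8% of cases. Over all genes with a peak at the start, the NRF1 letters were found in 12.9% and the ETS letters in 23.8%. CCAAT was found in 42.4% against 39.0%, and TATAAA in 10.6% against 13.3%. Among the 35 genes with a peak at the start, 9 held the NRF1 letters (25.7%, 12.5% to 43.3%), as did 9 of the 50 without (18.0%, 8.58% to 31.4%). A match describes letters in the window and is no evidence of binding.

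For m6A itself, the letters GGAC occurred within the first 50 nt of 21 of the 85 genes (24.7%), against 20% of all genes. In 4 of them the 30 bases around the letters lay wholly inside a peak of both lists. They are given here as candidate places by these letters alone, with GGAC in capitals, from the same RefSeq table and build. The base after GGAC was not considered, and in Ndufb10 it is a g, unlike in the others.
Ndufa8, chr2:36049289-36049318 (minus strand): ggccagccaaaggGGACttgaaggagacgg
Ndufb10, chr17:24724374-24724403 (minus strand): tccttagcgggcccagcggatccGGACgtg
Ndufaf8, chr11:120098954-120098983 (plus strand): cgccctcgagagcctaaaaGGACcgctcat
Atp5pb, chr3:105959214-105959243 (minus strand): aggctcgggtcggggtcacagGGACacgga
The peaks around them span 151 to 891 exonic nt, so the peaks do not resolve which adenosine was methylated.

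Peaks of oxidative phosphorylation genes were of lower fold and better supported than peaks at large. The fold is the authors' ratio of IP to input for a peak, and the log10 false discovery rate (FDR), also the authors', is more negative for better supported peaks and is given as an FDR of 0 below the limit of the file's numbers. The median fold of the 96 control peaks was 3.49 (quartiles 2.39 and 6.43) against 4.62 for all control peaks. The median fold of the 111 Dox peaks was 2.40 (quartiles 1.73 and 3.85) against 3.51. The median log10 FDR was -22.8 against -8.75 in the control list and -14.4 against -6.42 in the Dox list. Mitochondrial ribosomal protein genes had like values, with median folds of 3.35 and 2.66 and median log10 FDRs of -24.8 and -18.1. Cytoplasmic ribosomal protein genes had a median control fold of 3.01 and a median log10 FDR of -108. Among the groups of oxidative phosphorylation genes, assembly factors had a median Dox fold of 3.78, above that of all Dox peaks. The 2 lists were called separately, so a fold that differs between them is not a measured change in m6A.

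In complex I the strongest peaks were on Ndufb7, Ndufv1 and Ndufb10, each with an FDR of 0 in at least 1 list. Ndufb7, an accessory subunit on the intermembrane side, had 2 peaks with identical bounds in both lists. The one in its last exons (chromosome 8, 83570743 to 83571626) had a control fold of 7.70 and a Dox fold of 4.40, at an FDR of 0 in both. The one at its start (83566701 to 83567000) went the other way, with folds of 5.13 and 11.6 and log10 FDRs of -212 and -176. The position of the higher fold in Ndufb7 thus differed between the lists. Ndufv1, the core subunit that binds NADH and flavin, had a control peak (chromosome 19, 4009890 to 4012717) with a fold of 7.40 and an FDR of 0. The overlapping Dox peak had fold 3.27 and log10 FDR -273. Ndufb10, an accessory subunit of the membrane arm, had 2 control peaks with folds of 5.99 (FDR of 0) and 4.01 (log10 FDR -150). A single Dox peak (chromosome 17, 24722327 to 24724419) with a fold of 3.81 spanned both.

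Other strong complex I peaks were also called in both lists. Ndufa7, an accessory subunit, had a peak of the same bounds in both (chromosome 17, 33825057 to 33825734), with folds of 4.68 and 3.03 and log10 FDRs of -319 and -151. Ndufa8, an accessory subunit with cysteine motifs that resides in the intermembrane space, had a start peak with folds of 20.6 and 9.76 and log10 FDRs of -172 and -157, over the GGAC shown above. This was the highest control fold among peaks of these genes at a log10 FDR of -20 or less. Ndufs6, needed for a late step of complex I assembly, had 1 peak over 3 exons, with folds of 8.89 and 4.75 and log10 FDRs of -156 and -86.2.

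Several complex I genes had Dox peaks without a counterpart. Background for this comparison was high: 29.1% of all Dox peaks had no overlapping control peak, and 11.6% of those at a log10 FDR of -5 or less. Ndufa10, an accessory subunit, had 4 Dox peaks and no control peak. The best supported of the 4 (chromosome 1, 92460384 to 92460592) had fold 2.23 and log10 FDR -24.9, and the others had folds between 1.45 and 2.24. Ndufs5 had a Dox peak with fold 1.82 and log10 FDR -9.46, and Ndufa12 one with 2.08 and -6.63. Ndufv2, a core subunit with an iron-sulfur cluster, had 2 Dox peaks, the better supported one with fold 1.31 and log10 FDR -6.01. Ndufs1 (fold 1.60, log10 FDR -4.08) and Ndufa6 (1.17, -1.70) were weaker. Ndufa7 (1.36, -10.3), Ndufv1 (1.70, -7.97) and Ndufv3 (1.67, -12.1) had such a peak beside peaks present in both lists. All of these folds were low, and none exceeded 2.24. The remaining Dox peak without a counterpart, on Ndufa13, had a fold of 3.90 at a log10 FDR of -2.18. Together they are 14 of the 45 Dox peaks of complex I (31.1%, 18.2% to 46.6%).

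Control peaks without a Dox peak were few in complex I. Of 35 control peaks 2 had no overlapping Dox peak (5.71%, 0.700% to 19.2%), against 19.3% of all control peaks. These were on Ndufs3, a core subunit, with fold 28.3 and log10 FDR -6.04, and on the accessory subunit gene Ndufb5, with 1.65 and -2.68. The fold of 28.3 is a coarse value that 46 control peaks share, and the midpoint of the peak lies outside the RefSeq interval of Ndufs3. Complex I control peaks were better supported than control peaks at large, with 88.6% at a log10 FDR of -5 or less against 64.3%. At that limit only 7.56% of all control peaks had no Dox counterpart, so the 19.3% is not a background of like support.

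Complex II, the succinate dehydrogenase, showed strong peaks on its matrix subunits and weak ones on its membrane anchors. Sdha, the flavoprotein, had a control peak (chromosome 13, 74332114 to 74333140) with fold 4.14 and log10 FDR -306, and the overlapping Dox peak had 2.61 and -127. Sdha also had 2 Dox peaks without a counterpart, with folds of 1.72 and 1.77 and log10 FDRs of -18.8 and -8.11. Sdhb, the iron-sulfur subunit, had a peak toward its 3′ end with folds of 3.37 and 2.81 and log10 FDRs of -129 and -139. Its peak at the start had folds of 8.0 and 2.40, with log10 FDRs of -26.1 and -9.02. The anchor genes Sdhc and Sdhd had no control peak. Their Dox peaks had folds of 1.59 and 1.78 and log10 FDRs of -2.14 and -5.16, so only that of Sdhd passed -5.

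All 8 genes of complex III, the cytochrome bc1 complex, had peaks. Uqcrh, the hinge subunit near cytochrome c1, had a peak with fold 3.70 and log10 FDR -203 in the control list and of 5.11 and an FDR of 0 in the Dox list. A peak nearer its start (chromosome 4, 116070678 to 116075071) had the same bounds in both lists, with folds of 5.05 and 4.44. Uqcrc1, a core protein of the matrix side, had its best supported peak at 108944414 to 108944955 on chromosome 9, with a control fold of 3.48 (log10 FDR -189) and an overlapping Dox fold of 2.62 (-120). The Uqcrc1 peak at its start had a control fold of 7.51 (-112) and a Dox fold of 3.32 (-184), so the order of support of the 2 peaks differed between the lists. Another control peak of Uqcrc1, with fold 1.55 and log10 FDR -11.1, had no Dox counterpart.

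The remaining complex III genes had weaker peaks. Uqcr10, a small subunit, had folds of 2.08 and 2.35 with log10 FDRs of -35.6 and -51.9, and Uqcrb, which takes part in ubiquinone binding, had 4.31 and 4.70 with -13.8 and -43.6. Both were higher and better supported in the Dox list. Uqcrb had a further Dox peak of fold 1.62 and log10 FDR -5.33 without a counterpart. Uqcrfs1, the Rieske iron-sulfur protein that hands electrons to cytochrome c1, had 2 Dox peaks and no control peak, with folds of 1.36 and 1.40 and log10 FDRs of -7.25 and -5.63. Uqcrc2, the other core protein, had a Dox peak only, with fold 1.81 and log10 FDR -1.84.

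Complex IV, cytochrome c oxidase, had few genes with peaks but also the best supported peak of the whole set. Cox6a1, the widely expressed form of subunit 6a, had a control peak (chromosome 5, 115345817 to 115348981) with a fold of 6.53 and a Dox peak with a fold of 2.89, both at an FDR of 0. The log10 p-values, which the files still resolve there, were -1630 and -734. Its control peak reached past the listed start into the promoter printed above, and its Dox peak ended inside the gene. Cox6b2, known as the testis form of subunit 6b, had folds of 10.4 and 4.98 with log10 FDRs of -46.7 and -19.4. Cox5b, a matrix-side subunit that binds zinc, also had peaks in both lists, the best supported with folds of 5.33 and 2.24 at different places.

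In complex IV 5 of the 8 genes with a peak had it in 1 list only. These were 37.5% in control only and 25% in Dox only, against 6.4% and 9.98% of all genes with a peak. Cox8a, the common form of the smallest subunit, had a control peak only, with fold 1.79 and log10 FDR -65.3. Of all control peaks at -50 or less, 0.534% had no Dox counterpart, and this was 1 of the 35 such peaks on oxidative phosphorylation genes. Cox5a, a subunit on the matrix side, had a control peak only (chromosome 9, 57521232 to 57521352), with fold 2.71 and log10 FDR -22.8. Ndufa4l2, a hypoxia-responsive paralogue of the Ndufa4 subunit, had one with a fold of 14.8 at a log10 FDR of -2.60. That fold is coarse, shared by 299 control peaks. Cox7a1, known as the heart and muscle form of subunit 7a, had a Dox peak only, over 4 exons (chromosome 7, 30184263 to 30186019), with fold 3.52 and log10 FDR -31.3. Cox7b, on the X chromosome, had a Dox peak with fold 1.62 and log10 FDR -5.34. Both directions therefore occurred among the 5 complex IV genes with peaks in 1 list.

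In complex V the strongest peaks were on small subunits of the membrane part, on a c ring gene and on a stalk subunit. Atp5j2, which encodes the membrane subunit f, had folds of 6.28 and 3.90, at an FDR of 0 in both lists. Atp5g3, one of the c ring genes, had a peak of identical bounds in both lists (chromosome 2, 73910441 to 73911326), with a fold of 9.27 at an FDR of 0 in the control list and 4.72 at a log10 FDR of -249 in the Dox list. Atp5k, subunit e, also had identical bounds (chromosome 5, 108433244 to 108434184) but a higher fold in the Dox list, with 3.28 at -32.3 and 4.13 at an FDR of 0. Atp5e, the epsilon subunit of the central stalk, had folds of 3.49 at an FDR of 0 and 2.16 at -129. The 2 peaks of equal bounds on Atp5g3 and Atp5k thus stood in opposite order between the lists.

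Some complex V peaks had no counterpart. Of 20 control peaks these were 6 (30%, 11.9% to 54.3%) and of 19 Dox peaks 5 (26.3%, 9.15% to 51.2%), and both intervals hold the shares of all peaks, 19.3% and 29.1%. Every peak of Atp5d, Atp5h, Atp5j, Atp5pb and Atp5g1 was matched. Atp5a1, the alpha subunit of the catalytic head, had a control peak near its start with fold 2.30 and log10 FDR -15.4 and no Dox counterpart. It also had a Dox peak further along with fold 1.14 and log10 FDR -8.67 and no control counterpart. A second control peak of Atp5e, at its start, had fold 3.08 and log10 FDR -5.46 and no counterpart. Atp5g3 had a second Dox peak of fold 2.63 and log10 FDR -68.0 without a counterpart, the best supported Dox peak of that kind among these genes. Atp5o, the stalk subunit that confers sensitivity to oligomycin, had peaks in both lists that did not overlap: a control peak of fold 13.5 at a log10 FDR of -2.31 and Dox peaks of 2.48 at -39.9 and 1.51 at -5.38. The last of these extends far beyond the RefSeq interval of Atp5o and may belong to another gene. Atp5l, subunit g, had a Dox peak only, with 1.71 and -12.0, and Atp5c1, the rotating gamma subunit, a control peak only, with 13.5 and -2.31. The fold of 13.5 is shared by 334 control peaks and is coarse.

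Assembly factors had as many peaks in 1 list as in the other. Of their 20 control peaks and 20 Dox peaks, 2 in each direction had no counterpart (10%, 1.23% to 31.7% each). All control peaks gave 19.3% and all Dox peaks 29.1%, both inside that interval. Cox7a2l, which joins complexes III and IV into supercomplexes, had folds of 6.73 and 4.94 at an FDR of 0 in both lists. Cox10, an enzyme on the path to the heme a of complex IV, had a peak of identical bounds (chromosome 11, 63963907 to 63964294), with folds of 15.1 and 9.91 and log10 FDRs of -202 and -107. Cox17, the copper chaperone of complex IV, had folds of 3.56 and 2.84 with -164 and -128. A second identifier placed in the Cox17 gene had peaks of 3.33 and 2.72 that were not counted. Cox19, also of the copper pathway, had folds of 6.92 and 5.97 with -56.7 and -62.5.

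The exceptions among assembly factors were few. Cox18, which inserts a mitochondrially encoded subunit into the membrane, had a control peak only, with fold 3.49 and log10 FDR -5.24. Ndufaf1, an early complex I assembly factor, had a control peak near its start with 3.80 and -6.83 without a Dox counterpart. Its other peak was higher in the Dox list, with folds of 3.48 and 5.61. Ndufaf2, a late complex I assembly factor, had a Dox peak only, with 4.12 and -15.8. Cox14, a complex IV assembly factor, had a Dox peak with 1.69 and -6.15 without a counterpart, beside a start peak with folds of 14.8 and 5.42 in both lists, the first also a value that 299 control peaks share.

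**Figure D3:**
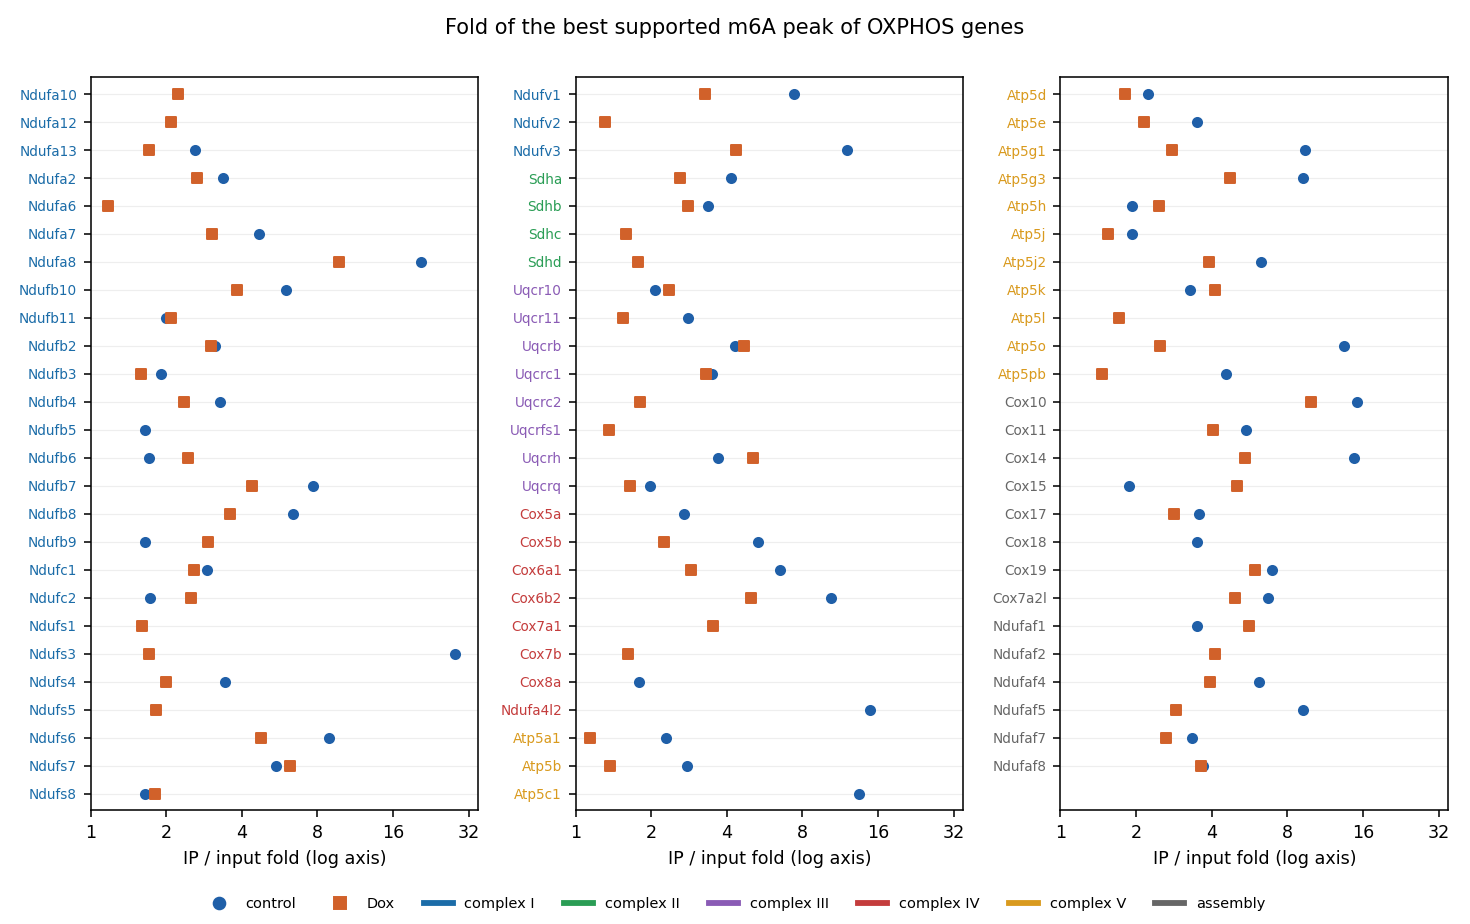
Fold of IP over input (log axis) of the best supported control peak (circle) and Dox peak (square) of the genes with a peak, 1 gene left out, names coloured by complex. A gene's 2 peaks need not overlap, a missing symbol means no peak in that list, and the control folds of Ndufs3, Atp5c1, Atp5o, Ndufa4l2 and Cox14 are values that many control peaks share.

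Over the whole set, control peaks lacked a Dox counterpart about as often as control peaks at large. Of the 96 control peaks 15 had none (15.6%, 9.02% to 24.5%), against 19.3%. At a log10 FDR of -5 or less these were 8 of 79 (10.1%), against 7.56%. The 8 are those of Cox8a, Cox5a, Atp5a1, Uqcrc1, Ndufaf1, Ndufs3, Atp5e and Cox18 given above. Both shares have the background inside their intervals, since the interval of 8 of 79 runs from 4.47% to 19.0%. Of the 15 control peaks, 9 were in genes that had another peak in the Dox list.

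Dox peaks lacked a control counterpart about as often as at large when all were counted, and among supported peaks the comparison depended on the limits. Of the 111 Dox peaks 32 had none (28.8%, 20.6% to 38.2%), against 29.1%. At a log10 FDR of -5 or less it was 25 of 92 (27.2%, 18.4% to 37.4%), against 11.6%, with counterparts sought in the full control table. With that limit in both lists it was 31.5% (22.2% to 42.0%), against 22.3%, and the interval holds the background. With a fold of at least 4 in both lists it was 25%, against 31.6%. Between -20 and -5 it was 21 of 43 (48.8%, 33.3% to 64.5%), against 20%. Above -5 it was lower than at large, at 7 of 19 (36.8%, 16.3% to 61.6%) against 52.1%. Between -50 and -20 it was 3 of 14 (21.4%, 4.66% to 50.8%) against 4.57%, and at -50 or less 1 of 35 (2.86%) against 1.2%. These 32 peaks had a median fold of 1.69, and 24 of them (75%) had a fold under 2, against 24.9% of all Dox peaks without a counterpart. Of the 32, 19 were in genes with no control peak at all and 13 in genes that had one elsewhere. In the authors' shorter lists, which require a fold of at least 2, the share was 23.8% of 63 Dox peaks, against 22.3% of all.

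Where peaks overlapped, folds were mostly lower in the Dox list, as in the lists at large. The ratio of Dox to control fold had a median of 0.798 over the 81 control peaks with a counterpart, against 0.847 over all such control peaks. It was above 1 for 26 of the 81 (32.1%), against 37.5% of all such control peaks. Low ratios included those of Ndufa13, an accessory complex I subunit (22.8 and 4.61 in a peak near its start), Atp5g1, a c ring gene (9.44 and 2.78), and Sdhb (8.0 and 2.40). The highest were those of Cox15, a heme a enzyme (1.97 and 5.04), the start peak of Ndufb7 (5.13 and 11.6), a weak peak of Cox6b2 (2.46 and 4.98) and the core subunit gene Ndufs8 (6.77 and 13). The Dox peak of Cox6b2 also overlaps its stronger control peak of fold 10.4, so 4.98 is not a value of the weak peak's site alone. The Ndufs8 value of 13 is coarse, shared by 209 Dox peaks. Of the 96 control peaks 17 had the same bounds as a Dox peak, and the share over all control peaks is not given here.

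**Figure D4:**
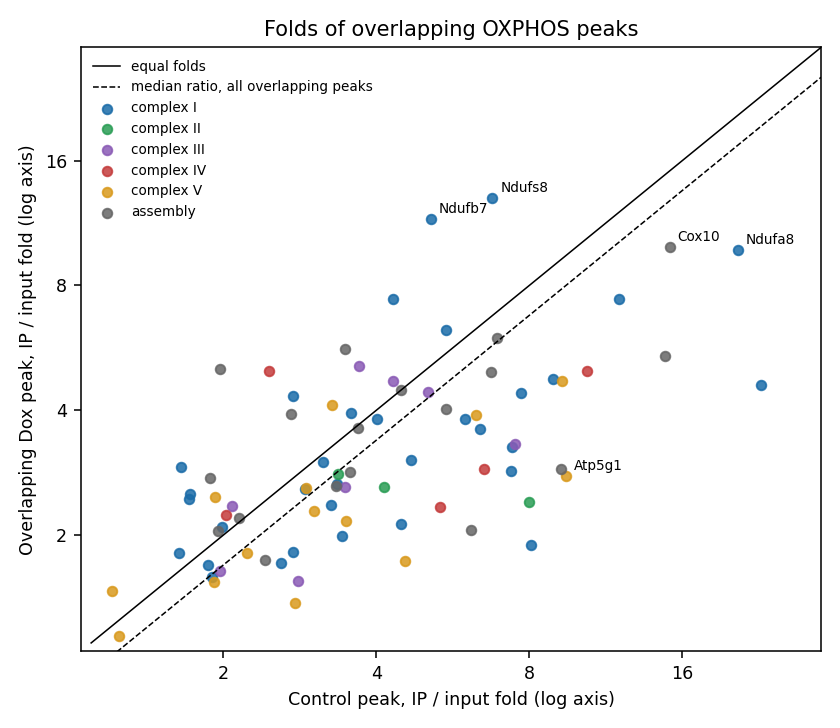
Control fold (horizontal, log axis) against the fold of the overlapping Dox peak (vertical, log axis) for each of the 81 control peaks with a counterpart, coloured by complex. The solid line marks equal folds and the dashed line the median ratio over all overlapping peaks (0.847), and 26 points lie above the solid line.

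Genes that work with these were mostly marked in both lists. Of 39 partner genes (further assembly factors, the ATP synthase inhibitor, cytochrome c and regulators of mitochondrial gene expression), 33 had peaks and 31 had them in both lists. The 33 are 84.6% (69.5% to 94.1%), against 48.8% of all protein-coding nuclear genes. The best supported were Uqcc3, a complex III assembly factor (fold 14.9 at an FDR of 0 in the control list, 4.91 at a log10 FDR of -236 in the Dox list), and Polrmt, the mitochondrial RNA polymerase (27.0 at an FDR of 0, 5.90 at -72.6). Atpif1, the ATP synthase inhibitor (9.34 at -199, 2.77 at -223), and Coa7, a complex IV assembly factor (9.31 at -159, 5.42 at -91.8), followed. Ttc19, of complex III assembly, had a control peak only (13.5 at -3.43), and Sdhaf3, of complex II assembly, Dox peaks only (best 5.42 at -2.18). No peak was called for Tmem126b, Sdhaf4, Lyrm7, Sco2, Pet117 or Ppargc1a. Peaks in both lists were thus found in 93.9% of partner genes with a peak, beside 74.4% of oxidative phosphorylation genes and 83.6% of all genes with one, and these differences were not tested.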

How the data were processed

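The authors' peak tables were used as deposited, 1 per condition, each tied by the labels to both replicates' IP and input libraries. The submitters' processing notes list, for mm10, TopHat2 2.1.1 and FastQC 0.11.5. The table names give exomePeak as the caller, and the sources used here do not give its version, settings or annotation. The fold enrichment is the authors' ratio of IP to input per peak, per the file headers. The deposited tables hold a p-value for every peak, and the log10 of p and of FDR are 2 further columns that the authors' tables give, treated here as scores of support since they run beyond the range of usual log values. The authors' shorter lists keep peaks that reach p = 1e-05 or lower together with a 2-fold or higher enrichment.

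Of 13110 identifiers, each was named after the RefSeq protein-coding gene holding at least 50% of its peak midpoints on its strand, and 11055 (84.3%) were named. The reference gave no strand for 20 of the 105 genes, 12 of them with an identifier, and these were matched by location only. Identifiers in overlapping genes or close copies can be misplaced by this rule, and those tied between genes were not named. Peaks counted as overlapping when 1 or more exonic nucleotides were common to both on 1 strand (bedtools 2.31.1). Coordinates are 1-based mm10 positions, and a peak's span includes introns between its exons. Promoters come from RefSeq's table, with the first listed start per gene for sequences and letters and any listed start for peaks at the start.

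The genes and lists were chosen with earlier results of these data known. Named by rule were the 4 genes per complex with the lowest log10 FDR, genes in 1 list only at -5 or less, and all peaks at -5 or less without a counterpart. Of the partner genes, the 4 with the lowest log10 FDR and those in 1 list only were named. Other genes were named after their values were seen. Alternatives were the authors' shorter lists, limits on FDR and on fold, stricter matching and overlap, and a narrower and a wider 5′ window. Python 3.11.15, numpy 2.4.6, pandas 2.3.3, scipy 1.17.1 and matplotlib 3.10.9 were used. On simulated peaks (300) overlap calls had 0 errors. Values of 1 gene are not reported here by name. Sequence inside peaks away from gene starts was not analysed here.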

Additional observations from a re-analysis of the deposited data

How the results depend on the processing

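Of 73 recomputed values, 61 stayed near the reported one and 12 moved. With a fold of at least 4 in both lists, 39 genes had peaks (78 as reported), and 17 had them in both lists (58). Control only held 18 genes (6) and Dox only 4 (14), so the order of these 2 counts turned. That fold was reached by 57.8% of all control peaks and 41.3% of all Dox peaks, and counts over all genes were not made at it. In the authors' shorter lists, 38 genes had peaks in both lists, 11 only in the control list and 12 only in the Dox list. The share of control peaks without a Dox counterpart (15.6%) was 26.1% in the shorter lists and 53.7% at a fold of at least 4, where all control peaks gave 24% and 45.7%. The median control fold (3.49) was 6.92 at a fold of at least 4, and the median Dox fold (2.40) was 3.27 in the shorter lists and 4.96 at a fold of at least 4, both limits removing low folds by construction. The control share at the 5′ end (35%) was 47.1% at a fold of at least 4. Limiting the set to genes with a strand in the reference, an alternative chosen after seeing the data, moved no value. No paired analysis was possible because both replicates of a condition are pooled into 1 list, and for the same reason no replicate could be left out.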
